A study of Mus musculus with 4 samples.

Results

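Runx1-positive endothelial cells of the mouse aorta-gonad-mesonephros region (AGM) are described here. A cell belonged to them when it passed an endothelial rule, held at least 2 UMIs (unique molecular identifiers, each counting 1 captured mRNA) of Runx1 and under 2 UMIs of Prox1, a lymphatic factor, and held no UMI of 6 blood genes. The endothelial rule asked for at least 3 of the 6 genes Cdh5, Pecam1, Tie1, Egfl7, Kdr and Esam, with at least 8 UMIs of them per 10000 UMIs of the cell. The 6 blood genes were Ptprc, F13a1, Mrc1, C1qa, Itga2b and Pf4. The selection found 86 cells among 44168 retained cells, of which 18887 passed the endothelial rule. Of the 86 cells, 45 came from the library MMPlow 1 and 41 from MMPlow 2, and the libraries MMPhigh 1 and MMPhigh 2 held 0. The comparison class was made of endothelial cells with no Runx1 UMI that met the same exclusions, 1327 cells in MMPlow 1 and 1344 in MMPlow 2, called Runx1-0 cells below. The 14 genes of the rule served to choose the cells, so their values are given as a description and were not tested.

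In the embryo, a small set of endothelial cells lining the dorsal aorta gives rise to blood by the endothelial-to-haematopoietic transition. The transcription factor Runx1 is required for this step, and its targets Gfi1 and Gfi1b repress endothelial genes while the cell rounds up and leaves the vessel wall. Haemogenic endothelium is therefore known for holding Runx1 and Gfi1 together with endothelial genes such as Cdh5, the vascular cadherin, and for gaining Kit, Myb and Spn (CD43) as blood identity is taken on.

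All 4 libraries came from CD31-positive AGM cells of C57BL/6J embryos at E11.5 (embryonic day), sorted on TMRM, a dye that enters mitochondria according to their membrane potential. The fraction of low intensity is MMPlow and that of high intensity MMPhigh, with 2 libraries each, and the labels name no mutant allele and no treatment. CD31 is the protein of Pecam1, so the sort and the rule share a gene. Nothing in the labels tells whether the 2 libraries of a fraction came from separate embryos, so the spread between them may be technical. In the gene tests the library was a block, so their p-values weigh differences between classes against how far these varied between the MMPlow libraries. That spread was shared over genes and drawn in part from cells with a single Runx1 UMI, not taken from each gene alone.

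The libraries held 4288 to 59928 barcodes and 51800709 to 120168395 UMIs, and between 3486 and 19579 cells were retained in each. Few cells of the MMPhigh libraries passed the endothelial rule, 46 of 4403 and 22 of 3486 retained cells. In MMPlow 1 8617 of 16700 passed it, and in MMPlow 2 10202 of 19579. The rule does not measure the CD31 gate itself. Between 7 and 89 barcode sequences were shared by pairs of libraries among retained cells, and none of them belonged to the 86 cells.

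The blood genes removed most of the endothelial cells, with or without Runx1. Of the endothelial cells, 911 in MMPlow 1 and 1139 in MMPlow 2 held at least 2 Runx1 UMIs, and the Prox1 limit left 899 and 1122. The 6 blood genes then removed all but 45 and 41 (5.01% and 3.65%). Of the endothelial cells without a Runx1 UMI that passed the Prox1 limit, 1327 of 6614 and 1344 of 7796 (20.1% and 17.2%) passed the 6 blood genes. Among the cells removed, those with Ptprc, the pan-leukocyte antigen CD45, or Itga2b, the early blood and megakaryocyte integrin CD41, numbered 625 and 786. Cells left out for a UMI of Pf4 alone, the platelet factor, numbered 144 and 165. Pf4 was found widely in MMPlow: at least 1 UMI was present in 71.8% and 76.7% of all endothelial cells and in 65.5% and 74.0% of cells with neural markers, which should lack it, at median depths of 3408, 3949, 4604 and 5212.5 UMIs. In MMPhigh 1 and MMPhigh 2 the share of neural-marker cells with Pf4 was 30.6% and 33.6%. Each other blood gene was found in 7.74% to 17.6% and 6.05% to 17.9% of the MMPlow neural-marker cells. Under the Prox1 limit, Itga2b was present in 43.0% and 41.9% of Runx1-positive endothelial cells, against 8.07% and 6.81% of those without Runx1. Ptprc was present in 34.0% and 35.7% against 5.97% and 5.99%. The rule that left out most Runx1-positive endothelial cells thus rested in part on genes also found in cells of another kind, Pf4 most often. The part of free RNA in this was not tested.

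**Figure D1:**
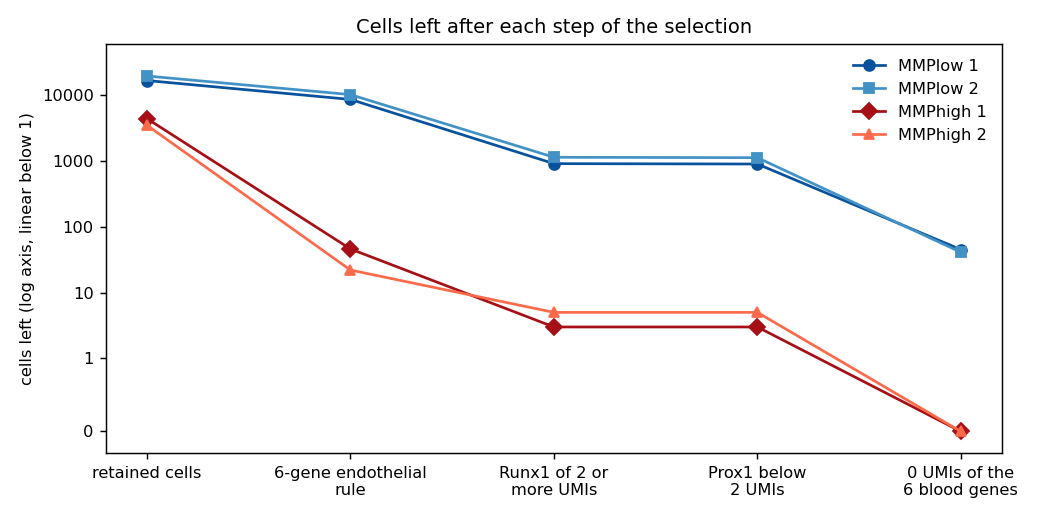
Cells left after each step of the selection (x axis) in the 4 libraries (y axis, number of cells, log scale and linear below 1). The MMPlow libraries fell from 16700 and 19579 retained cells to 45 and 41, and the MMPhigh libraries held 46 and 22 endothelial cells and ended at 0.

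In MMPlow 1 the 45 cells made up 0.522% of the endothelial cells (exact 95% interval, counting error only, 0.381 to 0.698), and in MMPlow 2 the 41 cells made up 0.402% (0.289 to 0.545). The mean was 0.462% ± 0.0851 (SD, n = 2). In MMPhigh 1, 0 of 46 endothelial cells allowed a share of up to 6.52%, and in MMPhigh 2, 0 of 22 allowed up to 13.6%, so that a share like that of MMPlow was not detectable at this depth. Of all retained cells, the Runx1-positive endothelial cells were 0.269% and 0.209% in MMPlow, with a mean of 0.239% ± 0.0425 (SD, n = 2). A count of 0 allowed up to 0.0681% and 0.0861% in the MMPhigh libraries. An exact two-sided permutation test over the libraries gave p = 0.333 for either share, the smallest that 2 against 2 can give. The fractions also differed in how many cells passed the endothelial rule at all.

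Runx1 itself was sparse. Of the 45 cells of MMPlow 1, 23 held exactly 2 Runx1 UMIs and 22 held 3 or more, up to 10. Of the 41 cells of MMPlow 2, 19 held exactly 2 and 22 held 3 or more, up to 12. Just outside the threshold, 154 and 133 endothelial cells with the same exclusions held a single Runx1 UMI. Near the endothelial limit, 3 and 2 of the Runx1-positive cells had 8 to 10 endothelial UMIs per 10000, and 2 and 7 cells that met every other criterion had 6 to 8.

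The share of cells with Runx1 was compared with that of cells that should lack it. Among endothelial cells that passed the exclusions, 2.95% of 1526 in MMPlow 1 and 2.70% of 1518 in MMPlow 2 held 2 or more Runx1 UMIs, at median depths of 3332.5 and 3772.5 UMIs. Among neural-marker cells that passed the same exclusions the shares were 4.92% of 61 (exact 95% interval 1.03 to 13.7) and 1.72% of 58 (0.0436 to 9.24), at median depths of 4270 and 5005 UMIs. After each cell was thinned to 2000 UMIs, at least 1 Runx1 UMI remained in 8.32% and 6.46% of the endothelial cells and in 9.84% and 0% of the neural-marker cells. The exact 95% intervals after thinning were 6.99 to 9.82 and 5.27 to 7.81 for the endothelial cells. For the neural-marker cells they were 3.70 to 20.2 and 0 to 6.16. Of muscle-marker cells that passed the exclusions, 0 of 13 and 2 of 12 held 2 or more Runx1 UMIs. By this share alone, Runx1 in endothelial cells that passed the exclusions was not distinguishable from its background in these few cells of other kinds. What the 86 cells held besides Runx1 is given below.

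The label of haemogenic candidates was checked against the fixed markers Runx1, Cdh5, Neurl3 and Gfi1. Runx1 reached 721 and 622 CPM (UMIs of the gene per 1000000 UMIs of the class) in MMPlow 1 and MMPlow 2, as the rule demanded. Cdh5 stood at 261 and 286 CPM, below the 458 and 454 CPM of the Runx1-0 cells, and was detected in 30 of 45 and 27 of 41 cells. Gfi1, the early Runx1 target, had 0 UMIs in both libraries, which allows up to 15.7 and 12.4 CPM, and was close to 0 in every MMPlow class, with 1 UMI in the Runx1-0 cells of each library. Neurl3, a ubiquitin ligase used to mark haemogenic endothelium, had 2 UMIs in MMPlow 1 and 0 in MMPlow 2, against 30 and 30 UMIs in the Runx1-0 cells. The ratio of the pooled Neurl3 levels, Runx1-positive over Runx1-0, was 0.878 (exact 95% counting interval 0.104 to 3.31). Gfi1 and Neurl3 thus did not bear the label out at this depth, and the cells are called Runx1-positive endothelial cells, by their rule.

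The summed level of the 6 endothelial genes of the rule was lower in the chosen cells than in the Runx1-0 cells. The 6 genes together had a median of 16.6 UMIs per 10000 in MMPlow 1, from 8.67 to 41.4, and of 15.4 in MMPlow 2, from 8.29 to 35.7. The Runx1-0 cells had medians of 25 and 25.9. The chosen cells had a median of 3495 and 4811 UMIs, against 3320 and 3739.5 in the Runx1-0 cells, and a median mitochondrial share of 5.54% and 5.06%, against 3.53% and 4.25%. Among the 6 genes, Kdr, the main VEGF receptor, stood at 439 and 448 CPM against 610 and 675. Pecam1 stood at 397 and 365 CPM against 463 and 478, and Tie1, an orphan receptor of the angiopoietin system, at 209 and 120 CPM against 205 and 185, so that its classes overlapped. Egfl7, a secreted factor of endothelium, stood at 522 and 444 CPM against 637 and 632, and Esam, a junction protein, at 141 and 124 CPM against 179 and 190.

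The endothelial rule was also passed by cells with markers of other kinds in MMPlow. It took in 31.4% and 32.4% of cells with macrophage markers and 16.4% and 11% of cells with neural markers, against at most 1.01% of either in the MMPhigh libraries. Of the Runx1-positive endothelial cells themselves, 3 of 45 and 4 of 41 counted as cells with macrophage markers and 0 as cells with neural markers. Cells with any UMI of further blood genes were more common. Only 14 of 45 and 13 of 41 held no UMI of 6 more blood genes, Csf1r, Tyrobp, Fcer1g, Laptm5, Gp9 and Ppbp. Of the Runx1-0 cells, 637 of 1327 and 581 of 1344 held none. Of all cells with 2 or more Runx1 UMIs in MMPlow, 24.4% and 24.3% passed the endothelial rule. A doublet is a droplet with more than 1 cell: 10 of 45 and 11 of 41 Runx1-positive endothelial cells (22.2% and 26.8%) lay among the 6% of cells with the highest doublet scores of their library, against 3.62% and 3.57% of the Runx1-0 cells. The doublet scores and the lower endothelial level moved together with the class. Counts of called genes without the high scores are given below, and the part of free RNA in the results was not tested.

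Across the transcriptome, UMIs were summed per library and class and compared with edgeR's quasi-likelihood test, with the library as a block. Of 8852 genes tested, 779 (8.8%) passed a Benjamini-Hochberg adjusted p of 0.05, 428 of them (4.84%) higher and 351 (3.97%) lower in the Runx1-positive cells, and all 779 had the same sign within MMPlow 1 and within MMPlow 2. Ikzf1, Myb and Adgrg1, known from blood progenitors, were among the genes called higher, and Cldn5, Emcn and Flt1, known from vessels, among those called lower. The median log2 fold over all genes was -0.03. DESeq2 called 269 genes on the same sums. Without the highest 6% of doublet scores 477 genes were called, of which 417 were among the 779, and with an endothelial limit of 12 per 10000 the test called 334 genes, of which 327 were among them. The class with a single Runx1 UMI, which was part of the fit to share the estimate of the spread, differed from the Runx1-0 cells in 7 genes. More genes were called lower than higher in some alternatives, given with the other processing results.

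**Figure D2:**
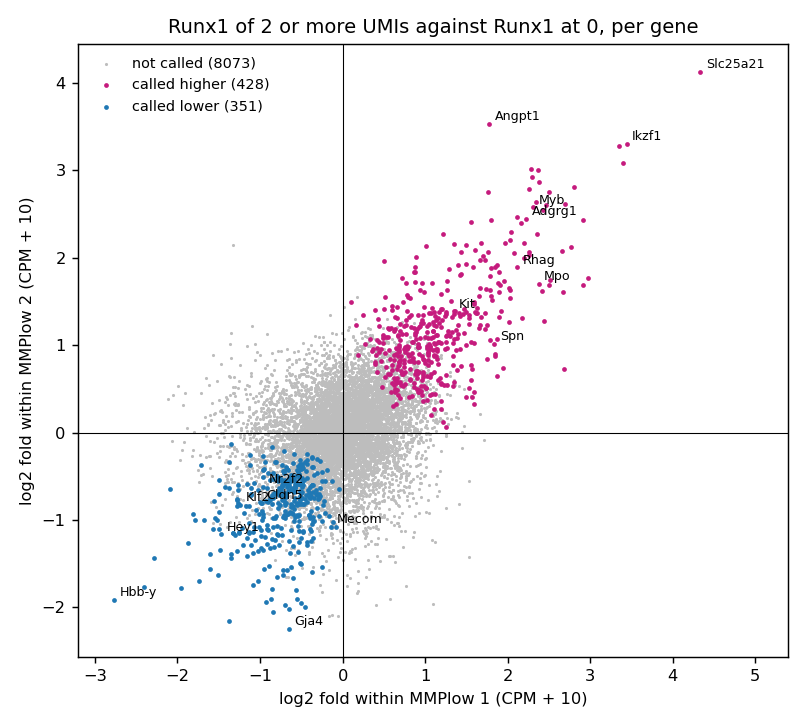
Log2 fold of Runx1-positive over Runx1-0 endothelial cells within MMPlow 1 (x axis) and within MMPlow 2 (y axis), computed on CPM with 10 added, for each of the 8852 genes tested. The 428 genes called higher lie in the upper right and the 351 called lower in the lower left, with Slc25a21, at 4.33 and 4.13, farthest out.

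The 12 genes with the highest folds were Slc25a21, Insyn2b, Slc38a5, Rhag, Kcnn4, Tmem56, Ank1, P2ry14, Zbtb16, Slc22a3, Kel and Ikzf1, with log2 folds from 5.76 down to 3.93. Slc25a21, a mitochondrial carrier of oxodicarboxylates, stood at 298 and 236 CPM in the Runx1-positive cells of MMPlow 1 and MMPlow 2 and at 5.27 and 4.12 CPM in the Runx1-0 cells. The pooled level was 56.6-fold higher (exact 95% counting interval 40.5 to 80.0), with an edgeR log2 fold of 5.76 (SE 0.27, adjusted p = 2.47e-21). Its 57 UMIs in each library lay in 16 and 10 cells. Ikzf1, the lymphoid and progenitor factor Ikaros, stood at 303 and 236 CPM against 18.8 and 15 CPM, and was detected in 62.2% and 51.2% of the cells against 6.25% and 5.88%. After thinning to 2000 UMIs those shares were 46.7% and 39.0% against 4.45% and 3.35%. In both genes the libraries of the classes lay far apart.

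The levels of the other genes of the 12 were as follows. Rhag, the ammonia channel of the red cell's Rhesus complex, had 36.6 and 33.2 CPM against 0.752 and 1.65. Kel, the Kell blood group peptidase, had 67.9 and 29.0 CPM against 2.26 and 2.80, and Ank1, the ankyrin of the red cell skeleton, had 99.2 and 58.1 CPM against 4.51 and 2.64. Kcnn4, the calcium-gated potassium channel of red cells and lymphocytes, had 83.6 and 62.2 CPM against 4.51 and 1.81. Slc38a5 and Slc22a3 are transporters of small molecules, Slc38a5 of neutral amino acids such as glutamine, at 41.8 and 33.2 CPM against 1.32 and 0.823, and Slc22a3 of organic cations, at 88.8 and 45.6 CPM against 4.51 and 2.80. P2ry14, a receptor for UDP-glucose known from stem and progenitor cells, had 99.2 and 33.2 CPM against 3.95 and 2.64. Zbtb16, the zinc finger repressor PLZF, had 73.1 and 83.0 CPM against 4.70 and 3.79. Insyn2b, at 78.3 and 24.9 CPM, and Tmem56, at 31.3 and 33.2 CPM, stood at 0.823 to 1.69 CPM in the Runx1-0 cells. Each of these rested on 14 to 34 UMIs in the Runx1-positive cells of both libraries together, and all 12 genes were called in every alternative in which they were tested.

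Globin genes were not called higher. Hbb-y, the embryonic beta-type globin, had 15.7 and 29.0 CPM in the Runx1-positive cells and 165 and 137 CPM in the Runx1-0 cells, a log2 fold of -2.75 (SE 0.33, adjusted p = 3.63e-08, edgeR). Hba-x, its alpha-type partner, had 10.4 and 20.7 CPM against 89.5 and 73.5, a log2 fold of -2.37 (SE 0.43, adjusted p = 9.63e-05). Both calls were lost against Runx1-0 cells matched on total UMIs, with log2 folds of -1.28 (adjusted p = 0.0664) and -0.80 (adjusted p = 0.433). Of the 13 listed erythroid genes 6 were tested, 0 were called higher and these 2 lower, with a median of -0.31, where 4.84% of all tested genes were called higher and 3.97% lower. Summed over 12 of the 13, the Runx1-positive cells had 104 and 199 CPM and the Runx1-0 cells 383 and 312. All endothelial cells without Runx1, with no exclusion, had 390 and 199 CPM, and those left out for Pf4 alone 338 and 171, so that in MMPlow 2 the sum was not lower than in these classes. Alas2 and Slc4a1, genes of haemoglobin-making cells, had 0 UMIs in MMPlow 1 and 1 and 0 in MMPlow 2. A few genes outside the list were picked after their values were seen and say nothing of erythroid genes as a group. Among them Gata1, the erythroid and megakaryocyte factor, had 73.1 and 33.2 CPM against 15.2 and 9.06, and Epor, the erythropoietin receptor, 41.8 and 20.7 CPM against 3.95 and 2.31. Ermap and Mfsd2b, proteins of the red cell membrane, had log2 folds of 3.82 (SE 0.35) and 3.49 (SE 0.50). Klf1, the erythroid Krüppel-like factor, had 0 and 5 UMIs and was not tested, and Car2, carbonic anhydrase 2, was not called, at 115 and 91.3 CPM against 62.3 and 59.0.

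Promoter windows of the 12 genes are shown because these genes rose in cells chosen for Runx1, whose protein binds TGTGGT. RefSeq windows of GRCm38.p6, the 250 bases before each transcript start, were matched for 8 of the 12 genes, and the 3 windows below are those that hold TGTGGT or its reverse complement ACCACA, set in capitals. Each reads 5′ to 3′ along the gene and ends just before the start, in the promoter of the gene it is named for.

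Slc25a21, chr12:57160644-57160893, minus strand: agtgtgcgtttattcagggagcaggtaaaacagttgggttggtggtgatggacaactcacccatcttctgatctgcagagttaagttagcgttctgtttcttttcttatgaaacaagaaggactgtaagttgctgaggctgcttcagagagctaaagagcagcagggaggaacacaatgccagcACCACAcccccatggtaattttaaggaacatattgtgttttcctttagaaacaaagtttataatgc
Rhag, chr17:40810899-40811148, plus strand: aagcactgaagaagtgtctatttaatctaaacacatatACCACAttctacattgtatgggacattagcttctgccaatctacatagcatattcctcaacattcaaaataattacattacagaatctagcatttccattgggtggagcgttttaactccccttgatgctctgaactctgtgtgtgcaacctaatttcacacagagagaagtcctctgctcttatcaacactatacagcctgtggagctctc
Kcnn4, chr7:24370013-24370262, plus strand: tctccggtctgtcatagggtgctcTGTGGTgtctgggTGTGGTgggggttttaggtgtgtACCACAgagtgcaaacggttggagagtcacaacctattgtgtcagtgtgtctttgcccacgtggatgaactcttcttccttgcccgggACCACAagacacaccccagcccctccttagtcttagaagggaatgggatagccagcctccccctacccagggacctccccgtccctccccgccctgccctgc

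The Kcnn4 window held the motif 4 times and the other 2 held it once each. The motif, searched on both strands, was present in 10.3% of 9007 windows of tested genes, in 12% of 460 windows of the genes called higher, in 9.16% of 371 windows of those called lower and in 14.0% of 32851 windows of all genes. Of the GATA motif only the form AGATAA (reverse complement TTATCT) was searched. This form shares no copy with TGTGGT and was absent from the 3 windows shown, which were chosen for holding TGTGGT. Other forms of the GATA motif were not searched, so these windows, that of Rhag among them, may hold 1 or more. Of the 13 windows matched to 8 of the 12 genes, 3 (23.1%) held TGTGGT and another 3 (23.1%) held AGATAA, 2 of P2ry14 and 1 of Kel. AGATAA was present in 5.55%, 7.39%, 3.50% and 9.99% of the same windows. Windows were matched for 332 of the 428 genes called higher and 269 of the 351 called lower. A match describes these letters only and names no bound site.

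Genes known from the transition to blood and from early progenitors formed a list of 25, of which 19 passed the filter on low counts and were tested. Of these, 12 were called higher and 1 lower, with a median log2 fold of 2.31 against -0.03 over all genes and a background of 4.84% called higher. Genes low in the Runx1-0 cells could pass that filter through the Runx1-positive class, which in part sets these counts and the median. The same holds for the other lists and for the 12 highest folds. With no filter on low counts, 299 genes were called higher and 473 lower over all genes. Myb, the factor required for definitive blood, had 136 and 141 CPM in the Runx1-positive cells against 19.4 and 15.3 CPM (log2 fold 2.96, SE 0.27, adjusted p = 2.33e-11, edgeR). It was detected in 19 of 45 and 18 of 41 cells, and in 7.39% and 6.55% of the Runx1-0 cells. After thinning these shares were 20% and 24.4% against 4.45% and 3.65%.

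Adgrg1, Kit, Spn, Cd44 and Cd37, proteins of the cell surface, were called higher. Adgrg1, the adhesion receptor GPR56 of intra-aortic clusters, had 104 and 116 CPM against 14.5 and 13.2, a log2 fold of 2.95 (SE 0.30). Kit, the stem cell factor receptor, was already present in the Runx1-0 cells at 70.0 and 68.5 CPM and stood at 193 and 195 CPM in the Runx1-positive cells, a log2 fold of 1.43 (SE 0.19, adjusted p = 4.47e-07, edgeR). Spn, the sialomucin CD43, rested on 7 and 4 UMIs and had 36.6 and 16.6 CPM against 3.01 and 3.13. Cd44, the hyaluronan receptor, had 78.3 and 58.1 CPM against 13.7 and 12.4, and the tetraspanin Cd37 had 31.3 and 24.9 CPM against 3.57 and 3.46. The log2 folds of Cd44, Cd37 and Spn were 2.31, 2.90 and 2.98.

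Bcl11a, Ikzf2, Gfi1b and Meis1 were among the transcription factors of the list called higher. Bcl11a, known as the switch factor of fetal globin, stood at 277 and 324 CPM against 56.1 and 50.6, and was found in 57.8% and 68.3% of the cells against 18.5% and 17.7%. Ikzf2, or Helios, had 131 and 207 CPM against 18.8 and 17.0. Gfi1b, the second Gfi factor, had 47.0 and 20.7 CPM against 6.58 and 4.78, on 9 and 5 UMIs, and a log2 fold of 2.47 (SE 0.60, adjusted p = 0.00452). Meis1, the Hox cofactor of stem cells, had 131 and 241 CPM against 83.1 and 82.2. Gfi1b was thus higher where Gfi1 was at 0.

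Angpt1, the ligand of the receptor Tek, differed between the libraries, at 88.8 CPM in MMPlow 1 and 286 CPM in MMPlow 2 against 18.8 and 15.6 CPM. Its log2 fold of 3.43 (SE 0.38, adjusted p = 3.45e-05) was not called against Runx1-0 cells matched on UMIs (3.16, adjusted p = 0.155). Mecom, the stem cell and arterial factor Evi1, was the gene of the list called lower, at 501 and 282 CPM against 554 and 607 (log2 fold -0.66, SE 0.17, adjusted p = 0.0132). Its difference lay mainly in MMPlow 2, with log2 folds of -0.14 and -1.08 within the libraries, and its call was lost with DESeq2, with matched cells, with the endothelial limit of 12 and without the highest doublet scores. The other 6 tested genes were not called: Gata2, Mycn, Procr, Spi1, Hoxa9 and Dnmt3b had log2 folds of -0.56, 0.67, -0.43, 1.03, -1.14 and 1.30. Gata2, the factor that acts with Runx1 in haemogenic endothelium, had 20.9 and 12.4 CPM against 26.1 and 20.4.

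**Figure D3:**
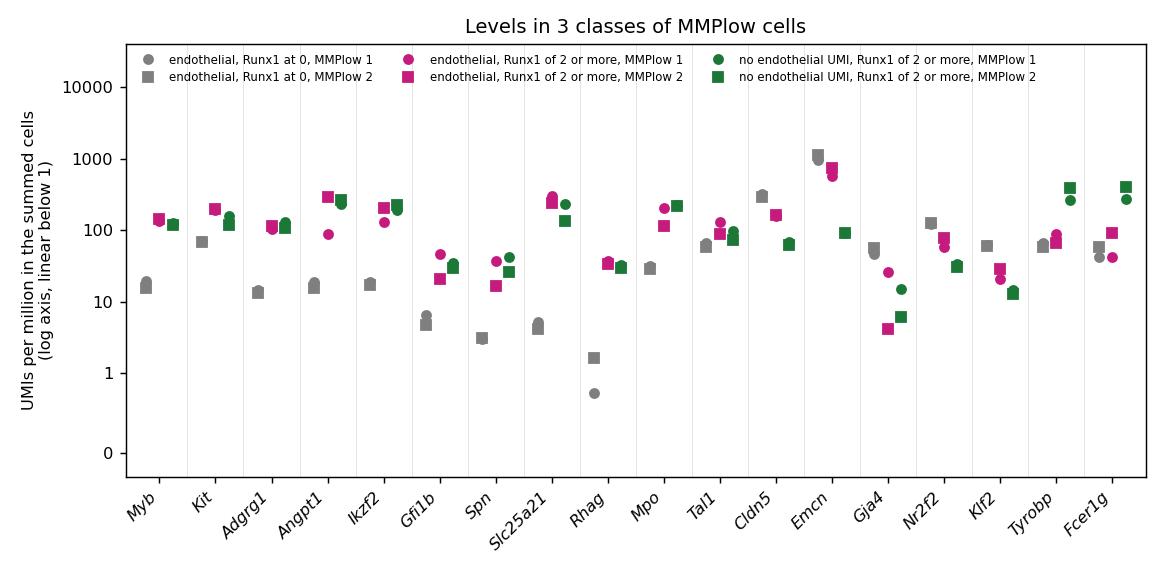
Level of 18 genes (x axis) in CPM (y axis, log scale and linear below 1) in Runx1-0 endothelial cells, Runx1-positive endothelial cells and cells with 2 or more Runx1 UMIs but no UMI of the 6 endothelial genes (no blood gene exclusion applied), with a point for each MMPlow library. Myb, Adgrg1 and Ikzf2 of the Runx1-positive endothelial cells sit at the level of the cells without endothelial UMIs, while Cldn5, Emcn and Nr2f2 sit between the other classes.

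Of 5 tested partners of Runx1 in the nucleus, 1 was called higher, where 4.84% of all tested genes were called higher and 3.97% lower. It was Cbfa2t3 (Eto2), a corepressor, at 162 and 66.4 CPM against 51.2 and 47.6 (log2 fold 1.09, SE 0.27, adjusted p = 0.00497). Cbfb, the DNA-binding partner of Runx1, had 99.2 and 108 CPM against 126 and 136 and was not called. Runx3 was not tested and had 0 UMIs in MMPlow 1 and 8 in MMPlow 2. In the set of 6 tested factors that share enhancers with Runx1 in early blood, Tal1 was called higher, at 131 and 87.1 CPM against 65.3 and 58.6 (0.73, SE 0.24, adjusted p = 0.0469), and Fli1 and Erg lower, with log2 folds of -0.59 (adjusted p = 0.00322) and -0.67 (adjusted p = 0.0491). Lmo2 and Lyl1 were not called. The calls of Tal1 and Erg lay close to the threshold and were lost in 8 and 10 of the alternatives, and that of Fli1 in 5, among them a reversal given with the other processing results.

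Of 13 tested genes of signalling in blood cells, 3 were called higher and 0 lower, with a median of 0.55, where 4.84% of all tested genes were called higher. Arhgap15, a Rac inactivator of blood cells, had 292 and 170 CPM against 18.8 and 11.2, and Dock2, a Rac activator of leukocytes, had 115 and 112 CPM against 13.9 and 6.75, with log2 folds of 3.88 (SE 0.24) and 3.46 (SE 0.34). Pik3cd, the leukocyte PI3-kinase subunit, had 36.6 and 20.7 CPM against 5.45 and 5.11. Coro1a, Lcp1, Plek and Cd52, abundant in mature leukocytes, were not called, with log2 folds of 0.31, -0.48, 0.14 and 0.55. Ripor2, chosen after its value was seen, had 345 and 253 CPM against 24.8 and 17.1.

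Of 25 general endothelial genes, all tested and none of them in the rule, 13 were called lower and 1, Tal1, higher, with a median of -0.59 and a background of 3.97% called lower. Cldn5, the tight junction claudin, had 157 and 162 CPM against 321 and 290 (log2 fold -0.98, SE 0.18, adjusted p = 0.000167). Flt1, the VEGF decoy receptor, had 428 and 473 CPM against 823 and 823 (-0.92, SE 0.13, adjusted p = 1.49e-06). Ptprb, the vascular phosphatase VE-PTP, had 198 and 178 CPM against 348 and 413 (-1.09, SE 0.18). Emcn, the sialomucin endomucin, had 580 and 739 CPM against 950 and 1120. These 4 genes were called in every alternative run. Over all lists with the genes picked after seeing values, without the 12 highest and 12 lowest folds, calls were less steady. DESeq2 lost 36 calls and left 46 results unchanged, and the endothelial limit of 12 lost 39 and left 42. Leaving out the highest doublet scores lost 19 and left 59. These counts are not split by list. Plvap, Robo4, S1pr1, Sox7, Sox18 and Adgrl4 were not called. Cells with 2 or more Runx1 UMIs and no UMI of the 6 endothelial genes held 62.1 to 92.1 CPM of Cldn5, Ramp2 and Emcn, so each of the 3 lay between the other classes in the Runx1-positive cells. Part of this order is set by the choice of that class, which was made for lacking endothelial UMIs.

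Some arterial and some venous genes were called lower. Of 15 arterial genes tested, 0 were called higher and 6 lower, with a median of -0.85, and of 11 venous genes 0 were called higher and 5 lower, with a median of -0.71. Over all tested genes 3.97% were called lower. Gja4, the arterial connexin 37, had 26.1 and 4.15 CPM against 46.8 and 57.1 (-1.96, SE 0.55, adjusted p = 0.0231). Hey1, a Notch target of arteries, rested on a single UMI against 94 and 132, a pooled ratio of 0.117 (exact 95% counting interval 0.00294 to 0.656). Notch1, Notch4 and Vegfc had log2 folds of -0.76, -1.14 and -0.85, and Mecom is described above. Sox17, Efnb2, Dll4 and Jag1 were not called, and Dll4, the arterial Notch ligand, had 26.1 and 12.4 CPM against 16.9 and 19.9. Of the venous genes, Nr2f2 (COUP-TFII), the factor of vein identity, had 57.4 and 78.8 CPM against 122 and 127 (-0.91, SE 0.26), and Ephb4 had 52.2 and 41.5 CPM against 108 and 115 (-1.32, SE 0.29, adjusted p = 0.0014). Stab2, a scavenger receptor of sinusoids, fell from 92.7 and 89.4 CPM to 20.9 and 20.7 (-2.19, SE 0.40, adjusted p = 0.000126). All 6 arterial calls were lost with DESeq2 and with the endothelial limit of 12, while Emcn and Stab2 kept theirs in every alternative.

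Receptors and targets of signals that act on the endothelium had medians below that of all genes, of which 3.97% were called lower and 4.84% higher. Of 12 Notch genes 4 were called lower, Hes1 at 20.9 and 4.15 CPM against 47.2 and 30.6 besides Notch1, Notch4 and Hey1, and the median was -0.26. Of 14 BMP and TGF-beta genes, Id3, Tgfbr2, Acvrl1 and Eng were called lower and Tgfb1 higher, at 167 and 158 CPM against 104 and 101 (0.61, SE 0.20, adjusted p = 0.0442). Of 12 VEGF and angiopoietin genes 5 were called lower and 2 higher. The 2 were the ligands Angpt1 and Angpt2, the latter at 110 and 74.7 CPM against 46.1 and 29.6 (1.23, SE 0.28, adjusted p = 0.00244), while their receptor Tek fell by 0.69 on the log2 scale. Of 7 flow-response genes, Klf2, Klf4 and Nos3 were called lower. Nos3, the endothelial nitric oxide synthase, had 20.9 and 24.9 CPM against 67.5 and 67.2 (-1.60, SE 0.38, adjusted p = 0.00375), and the channels Piezo1 and Piezo2 were not called. Zeb2 rose among 10 matrix and transition genes, at 496 and 436 CPM against 199 and 189, and Col4a1, Col4a2, Sparc, Vim and Zeb1 fell. The lists of 12 inflammatory and 7 immediate early genes held 0 called genes by edgeR and 0 by DESeq2, with medians of -0.25 and -0.55. In the immediate early list 3 genes, Jun, Klf6 and Ier2, had an unadjusted edgeR p under 0.05.

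**Figure D4:**
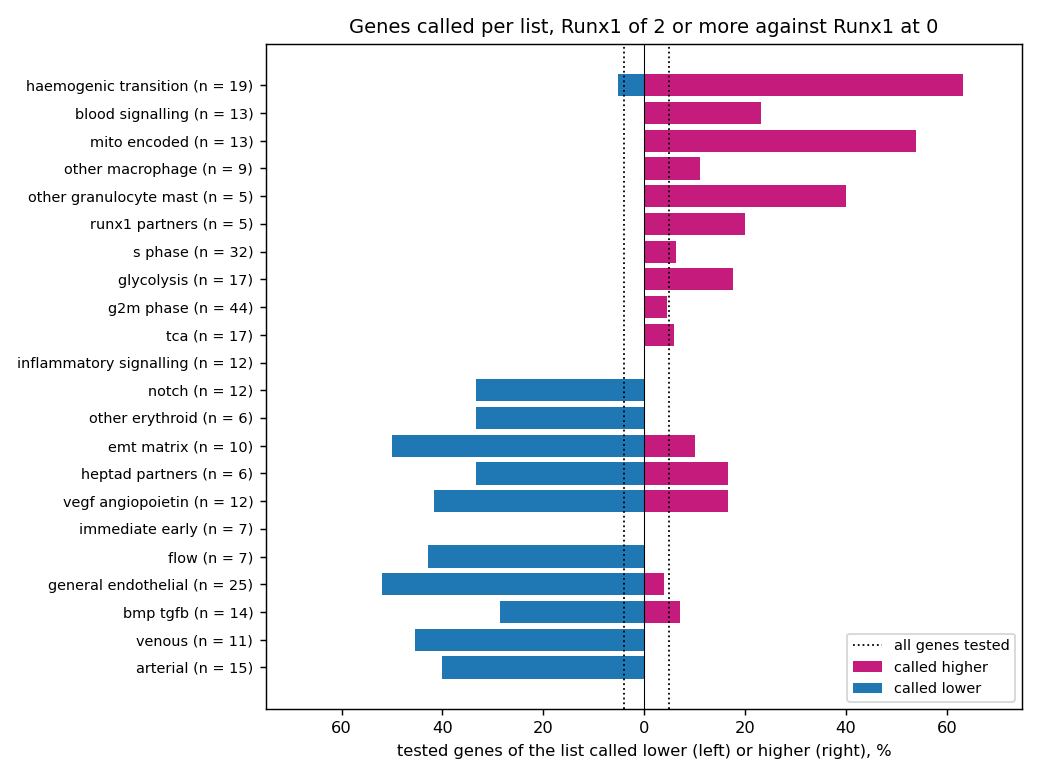
Share of the tested genes of each list (y axis, number tested in brackets) that were called lower (left) or higher (right) in Runx1-positive against Runx1-0 endothelial cells, in percent. The dotted lines mark the shares over all 8852 genes, 3.97% lower and 4.84% higher. The haemogenic transition list reached 12 of 19 higher, and the general endothelial list 13 of 25 lower.

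Of the 13 protein-coding genes of the mitochondrial genome 7 were called higher, with a median of 0.40, for example mt-Co1 at 6826 and 6016 CPM against 3902 and 4552. The median mitochondrial share given above is made of the same 13 genes, so it is no second observation. Summed, these genes had 49943 and 45822 CPM in the Runx1-positive cells and 32808 and 38279 CPM in the Runx1-0 cells. Runx1-positive endothelial cells left out for Pf4 alone had 54515 and 47299 CPM, and those with Ptprc or Itga2b 53557 and 50180 CPM. Of 17 glycolysis genes 3 were called higher: Hk2, a hexokinase, with a log2 fold of 1.83, and the lactate carriers Slc16a1 and Slc16a3, with 2.26 and 1.88. Of 17 tricarboxylic acid cycle genes 1 was called, Suclg2, at 0.93. Of 32 S phase genes Pola1 and Blm, and of 44 G2 and M phase genes Mki67 and Lbr, were called higher, close to the 4.84% of all genes, and the medians were 0.16 and 0.07. Mki67 had 496 and 444 CPM against 248 and 271 (0.79, SE 0.14, adjusted p = 7.03e-05).

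Summed markers of macrophages, of granulocytes and mast cells, and of megakaryocytes were higher in the Runx1-positive than in the Runx1-0 cells of both libraries. The 12 granulocyte and mast cell genes together had 590 and 415 CPM against 310 and 312, and the 12 megakaryocyte genes 480 and 378 CPM against 334 and 333. Summed over 16 macrophage genes, of which 14 had a UMI and Pf4 was at 0 by the rule, the Runx1-positive cells had 512 and 485 CPM, the Runx1-0 cells 346 and 349, and the cells with 2 or more Runx1 UMIs and no endothelial UMI, to which no exclusion was applied, 2740 and 3804. Part of this contrast is set by the rule, since only the first 2 classes were chosen without blood genes. Runx1-0 cells left out for Pf4 alone, a gene of the sum, had 821 and 810 CPM. Of 9 tested macrophage genes 1 was called higher, where 4.84% of all tested genes were: Laptm5, at 88.8 and 124 CPM against 54.2 and 49.9 (1.01, SE 0.27, adjusted p = 0.00912). Tyrobp, Fcer1g, C1qb and Lyz2 were not called, with log2 folds of 0.25, 0.38, 0.23 and -0.03, and Ms4a7 had 0 UMIs. Of 4 tested megakaryocyte genes 0 were called by edgeR or DESeq2, with a median of 1.25, and 3, Gp9, Thbs1 and Treml1, had an unadjusted edgeR p under 0.05. Of the 12 listed, Gp1ba was at 0 UMIs in both libraries. Mpo, the granule peroxidase of myeloid progenitors, was called higher, at 204 and 116 CPM against 31.2 and 28.8 (2.32, SE 0.25, adjusted p = 2.01e-09), and so was Prtn3, at 0.98. S100a8 and S100a9, proteins of mature neutrophils, were not called, at -0.43 and -0.03. Neural, muscle and mesenchymal markers summed to 24.9 to 146 CPM in the Runx1-positive cells and 33.3 to 167 CPM in the Runx1-0 cells. The part of these cells' RNA in the results was not tested.

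The 12 genes with the lowest folds were Cacna2d1, Spata1, Map2, Ctnna2, Dcc, Trpm3, Hbb-y, Klf4, Cby1, Col13a1, Ier5 and Col25a1, and apart from Hbb-y they rested on 1 to 4 UMIs in the Runx1-positive cells. Cacna2d1, a calcium channel subunit, had 0 and 1 UMIs against 153 and 235, a pooled ratio of 0.0679 (exact 95% counting interval 0.00171 to 0.380). Dcc, the netrin receptor of growing axons, had 1 and 3 UMIs against 374 and 404, a ratio of 0.135 (0.0368 to 0.348). Map2 and Ctnna2, genes of neurons, had 1 UMI each, with ratios of 0.101 (0.00255 to 0.569) and 0.106 (0.00268 to 0.597). Trpm3, with 3 UMIs, had a ratio of 0.144 (0.0295 to 0.422). Klf4, a flow-responsive factor, had 2 UMIs and a ratio of 0.169 (0.0204 to 0.617). The remaining 5, Spata1, Cby1, Col13a1, Ier5 and Col25a1, had 1 or 2 UMIs and ratios of 0.0917 to 0.189. DESeq2 called 2 of the 12. The calls of 8 of 11 tested were lost with the endothelial limit of 12, of 7 of 11 without the highest doublet scores and of 5 of 12 with 3 or more Runx1 UMIs.

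The 12 risen genes were spread unevenly over the cells. Of the 12, 2 or more were detected in 35 of 45 cells of MMPlow 1 and in 20 of 41 of MMPlow 2, against 23 of 1327 and 26 of 1344 Runx1-0 cells. At least 5 were detected in 13 and 9 of the Runx1-positive cells and in 1 and 1 of the Runx1-0 cells. None of the 12 was detected in 6 and 13 of the Runx1-positive cells, whose median endothelial level was 20.4 and 22.2 UMIs per 10000. In the cells with 2 or more it was 16.6 and 14.2. The median depth was 4117 and 4182 UMIs in the cells with none and 3407 and 5710 in those with 2 or more. The 12 genes were chosen on these cells, so that the counts describe them and carry no test.

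The cells also differed in Angpt1 and Ikzf2. Either gene was detected in 20 of 45 and 24 of 41 Runx1-positive cells, against 148 of 1327 and 152 of 1344 Runx1-0 cells. Along with 2 or more of the 12 genes they were found in 18 and 14 cells, and with fewer than 2 of the 12 in 2 and 10 cells. Another 17 and 6 cells held 2 or more of the 12 but neither Angpt1 nor Ikzf2. The remaining 8 and 11 cells held at most 1 of the 12 and neither Angpt1 nor Ikzf2. Both Angpt1 and Ikzf2 had been called higher on these same cells, so these counts describe the cells and carry no test. The counts were not thinned. Cells with 2 or more of the 12 and Angpt1 or Ikzf2 had median depths of 3440 and 7008 UMIs. The remaining cells had 3794.5 and 3732, so in MMPlow 2 the groups also differed in depth, whose part was not tested. Of the 3 genes Myb, Adgrg1 and Kit, all were detected in 7 and 7 Runx1-positive cells and in 2 of 1327 Runx1-0 cells of MMPlow 1. After thinning to 2000 UMIs all 3 remained in 2 and 1 Runx1-positive cells and in 0 Runx1-0 cells. None of the 3 was detected in 8 and 13 cells, and after thinning to 2000 UMIs in 21 and 18 cells, against 81.8% and 81.8% of the Runx1-0 cells.

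**Figure D5:**
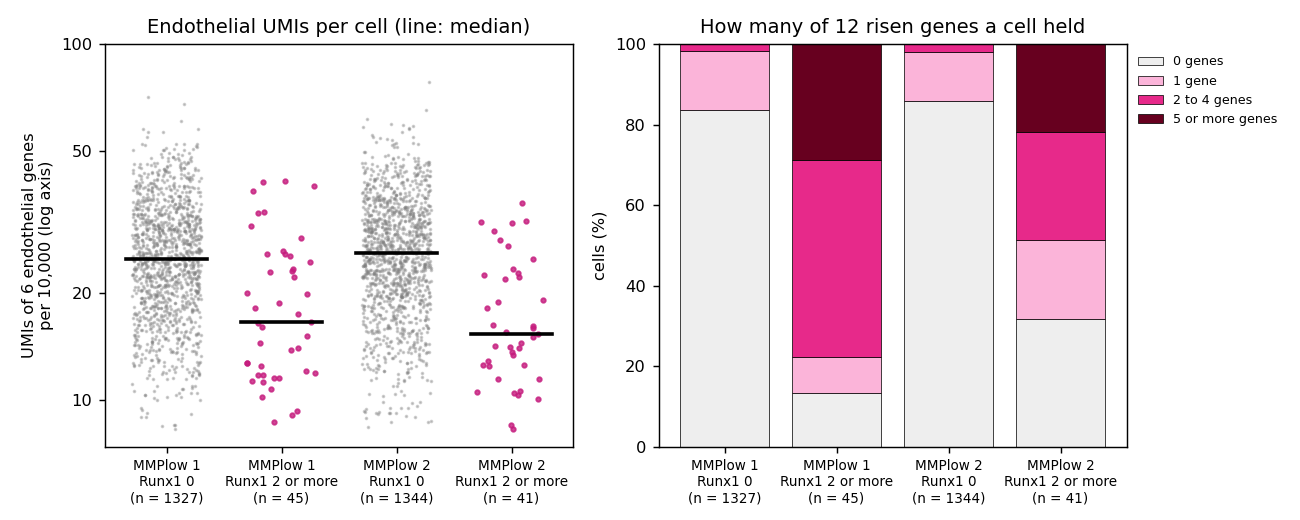
Left, UMIs of the 6 endothelial genes per 10000 in each cell (y axis, log scale) by library and class, with a line at the median: 25 and 25.9 in Runx1-0 cells, 16.6 and 15.4 in Runx1-positive cells. Right, share of cells (y axis, percent) by how many of the 12 risen genes they held, with 2 or more in 35 of 45 and 20 of 41 Runx1-positive cells.

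The Runx1-positive endothelial cells that the blood genes removed are described in the same way. Summed over the 25 genes of the haemogenic transition list, the chosen cells had 2214 and 2406 CPM in MMPlow 1 and MMPlow 2. The cells left out for Pf4 alone had 2708 and 2369 CPM, those with Ptprc or Itga2b 2515 and 2485 CPM, and the Runx1-0 cells 1041 and 1066 CPM. The removed Runx1-positive cells stood above the Runx1-0 cells in both libraries. Of the 12 risen genes, some chosen after their values were seen are given next. In the cells left out for Pf4 alone, Slc25a21 stood at 203 and 109 CPM and Ikzf1 at 239 and 175 CPM. In the cells with Ptprc or Itga2b, Slc25a21 stood at 48.8 and 59.7 CPM, P2ry14 at 270 and 187 CPM. Kel stood at 60.7 and 19.8 CPM in the cells left out for Pf4 and at 13.4 and 18.6 CPM in those with Ptprc or Itga2b. With Pf4 not used for exclusion in any class, the test called 3014 genes, among them 721 of the 779, and with no exclusion at all 7196 genes. Both settings add cells to each class.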

How the data were processed

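Single-cell 3′ libraries of 4 sorted samples (10x, kit version 3) were used. Per the labels and file headers, the authors deposited UMI counts per gene and barcode. The file headers name Cell Ranger 7.0.1, while the submitters' processing notes name Cell Ranger 2.1.1 and mm10, and which made the counts was not settled. Cells with at least 2000 UMIs, at least 1000 genes and under 25% mitochondrial UMIs were retained. Members and gene lists were chosen with earlier results of these data known, so that no list is independent evidence. Counts were summed per library and class, and genes were tested with edgeR 4.0.16 (R 4.3.3), quasi-likelihood with TMM scaling, the library as a block and Benjamini-Hochberg adjustment at 0.05. DESeq2 1.42.0 was an alternative. The block pairs classes taken from the same library. A check of the pairing gave correlations of 0.04, 0.18 and 0.34 between the classes' deviations. The fit was tested on simulated data of 8569 genes for the comparison of Runx1-positive with Runx1-0 cells, where it recovered 73% of genes changed by 1 on the log2 scale and 99% of those changed by 2. The changed genes were drawn from better-counted genes only, and all genes were given the same spread. These rates thus do not apply to genes resting on few UMIs. Named genes are the 4 markers of the label and the 12 highest and 12 lowest called folds with the same sign in both libraries and a mean of at least 20 CPM in the higher class, without rule genes and genes with no proper symbol. Genes of the lists are named as examples, called or not, and some are not reported here. Scrublet (in scanpy 1.11.5, Python 3.11.15) marked 2 of 16700 cells in MMPlow 1 and 0 of 4403 in MMPhigh 1 and had not worked there. It marked 996 of 19579 in MMPlow 2 and 68 of 3486 in MMPhigh 2. Its calls were used in no library, so doublets were kept, and the highest 6% of scores were left out as an alternative. Intervals are exact Clopper-Pearson or conditional binomial at 95%, a count of 0 allows 3 counts, and both cover counting error only.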

Additional observations from a re-analysis of the deposited data

How the results depend on the processing

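The share of endothelial cells, MMPhigh minus MMPlow, was -0.462 points with the counts of 0 in MMPhigh taken as 0%, which they do not establish. It was -0.0562 points after thinning to 2000 UMIs with 1 or more Runx1 UMIs, -0.235 with 3 or more Runx1 UMIs, -2.11 without Pf4 and -2.82 over cells passing the exclusions, and it was reversed to 0.166 points with 1 Runx1 UMI as the limit and to 3.76 points with no exclusion, where 46 and 22 MMPhigh endothelial cells set the precision. Leaving out each replicate in turn gave differences from -0.522 to -0.402 points of endothelial cells and from -0.269 to -0.209 points of retained cells; over the settings the latter ran from -5.53 with no exclusion to -0.122 with 3 or more Runx1 UMIs. With the replicate block, as sign flips within replicate numbers, the differences were -0.462 and -0.239 points (exact permutation p = 0.5). The 779 called genes became 269 with DESeq2, 334 with an endothelial limit of 12, 477 without the highest 6% of doublet scores, 3014 without Pf4 and 7196 with no exclusion, and lay between 563 and 905 otherwise. Without the replicate block 563 were called, all among the 779. The split of higher to lower calls was 299 to 473 with no filter on low counts and 435 to 470 with the class of 1 Runx1 UMI left out of the fit. The higher share was 61.2% with RLE scaling, 63.6% with no scaling, 74.3% with DESeq2, 69.8% with the endothelial limit of 12 and 54.9% as reported. Of the 779 genes, 13 had the opposite sign with no exclusion, among them Fli1 and the venous gene Dab2 at log2 folds of 0.20 and 0.53 (-0.59 and -0.86 in the test as reported), and 3 without Pf4. The alternatives on doublet scores, Pf4 and cells passing the exclusions, and for the gene counts that with no exclusion, were chosen after seeing the data, and the cause of these changes was not tested. Not run were Scrublet's own calls, and the tests with a stricter cell filter or with 6 more blood genes at 0, which left fewer than 20 cells in a class. Without a library no residual degree of freedom remains, so folds within each library stand in its place.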
